A study of Sus scrofa with 30 samples.

Results

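The mammary gland of the sow was compared between day 10 postpartum, the peak of lactation (PL), and day 70 of gestation (MG). Each sample was a frozen piece of mammary parenchyma from 1 gland of 1 sow, and the sows were multiparous hybrid half-siblings of Danish Landrace × Yorkshire. Of 30 samples in the series, 6 entered the comparison: PL samples 2, 3 and 6 and MG samples 1, 3 and 6. The other 3 samples of each stage (PL 1, 4 and 5 and MG 2, 4 and 5) were left out, because each nearly repeats the mean of the 3 used. Among transcripts averaging 10 units or more in the stage, any pair of left-out MG samples differed by a median of at most 1.80%, and pairs of the samples used by 20.3% to 23.3%. In PL these figures were 1.85% and 22.9% to 59.3%. All 61773 transcripts of the deposited table were tested, of which 32726 carry a reference identifier and 29047 were assembled by the authors (names beginning with MSTRG). Reference transcripts were also summed by gene, which gave 14930 genes. Sample titles set the stage. A second label of the records calls the samples titled MG early lactation and those titled EL mid-gestation, while both labels of the PL samples name peak lactation. In the samples titled MG, CSN1S2 averaged 319.8 ± 334 units (SD, n = 3), and in those titled EL it averaged 15045.

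In mid-gestation the gland builds ducts and alveoli, and its epithelial cells divide under progesterone, oestrogen, growth factors and RANK ligand. At the onset of lactation progesterone falls, and prolactin acting through STAT5 turns the alveolar cells to secretion. They then make caseins, whey proteins, lactose and milk fat, and they release proteins that protect the gland and the piglet against microbes. Whole tissue holds fat, stroma, vessels and immune cells beside the epithelium. In such samples, fewer cells of a type and less RNA per cell cannot be told apart.

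The deposited values are shares of a fixed total per sample, here called units, so transcripts that take a larger share lower all the others. Each result was therefore computed on the values as deposited and after median-ratio scaling, which makes the typical abundant transcript equal between samples. A gene was called only when limma's adjusted p was below 0.05 in both, and the words rose and fell are kept for such genes. The median log2 difference over all genes, PL minus MG, was -0.62 as deposited and -0.07 after scaling. Calls in both scalings comprised 351 genes that rose (2.35% of 14930) and 1323 that fell (8.86%). As deposited alone 358 were higher (2.4%) and 4909 lower (32.9%), and after scaling alone 1007 were higher (6.74%) and 1323 lower (8.86%). Lower genes were thus 93.2% of the calls as deposited and 56.8% after scaling. Samples of the stages did not overlap in 47.4% of genes. Overlap of stages was judged on the deposited values throughout. PL sample 2 stood apart from the other samples: it had 34065 transcripts above 0, against 42357 and 39524 in PL 3 and PL 6 and 43663 to 45457 in MG. Its scaling factor was 0.567, against 0.841 and 0.840 in PL 3 and PL 6 and 1.12 to 1.24 in MG. The median coefficient of variation between samples was 38.0% in PL and 20.1% in MG. Epithelial and mammary markers were present in every sample, with EPCAM, an epithelial adhesion protein, between 475 and 633 units and PAEP among the highest genes of each.

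The composition of the RNA differed first in a handful of very abundant products. Milk proteins other than PAEP held 2.95%, 1.20% and 1.75% of all units in MG samples 1, 3 and 6 and 28.5%, 13.9% and 9.17% in PL samples 2, 3 and 6. The stages did not overlap, and PL 2 held by far the largest share. The difference of means, 15.2 percentage points, was 9.58 without PL sample 2. SAA3, an acute-phase serum amyloid A, held 0.0830% ± 0.0148 (SD, n = 3) in MG and 4.32% ± 1.04 in PL. Ribosomal protein genes moved the other way, from 20.7% ± 0.995 to 8.92% ± 2.86. The 20 highest transcripts of a sample held 28.0% ± 2.18 in MG and 48.3% ± 9.99 in PL. For each of these shares the exact permutation test gave p = 0.1 (two-sided, n = 3 per stage), the smallest it can give. PAEP, a whey lipocalin, held 12.0% ± 1.74 and 12.2% ± 1.20 (exact p = 0.9). The mitochondrial genome held 9.46% ± 0.213 and 8.94% ± 1.39 (exact p = 0.8). The plot of shares by sample shows these classes side by side.

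**Figure D1:**
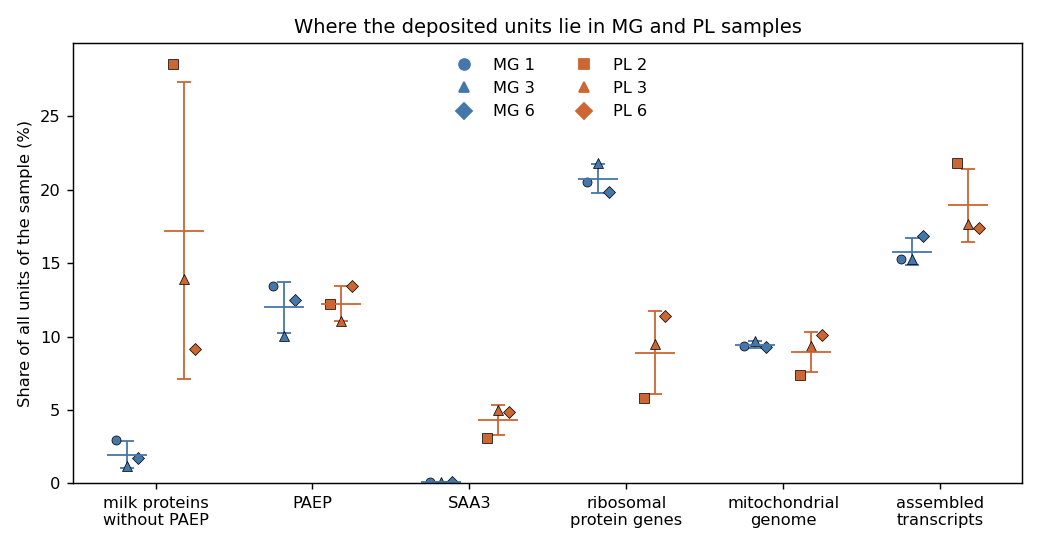
Share of all deposited units (%, linear axis from 0) held by 6 classes of transcripts in MG samples 1, 3 and 6 (blue) and PL samples 2, 3 and 6 (orange). Symbols are samples, and lines with bars are means ± SD (n = 3). Milk proteins other than PAEP and SAA3 lie higher in every PL sample, ribosomal protein genes lie lower, and PAEP overlaps.

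Of the 10 milk protein genes, 6 rose and none fell, against 2.35% and 8.86% of all genes. The median log2 difference over the list was 2.60 as deposited and 3.27 after scaling. CSN1S2, the alpha-s2 casein gene, lies on chromosome 8 from 66971081 to 67012343 (Sscrofa11.1) within the casein cluster. It stood at 255, 23.2 and 681 units in MG samples 1, 3 and 6 and at 84151, 47887 and 32080.2 in PL samples 2, 3 and 6. Every PL sample was far above every MG sample, and the ratio of means was 171 (log2 difference 8.30, standard error 1.49, limma adjusted p = 0.0016). WAP, whey acidic protein, on chromosome 18 from 50359599 to 50361906, went from 10.1, 1.22 and 51.8 to 12052, 8104 and 5910.1 units (log2 difference 9.72, standard error 1.32, limma adjusted p = 0.00034). LALBA, alpha-lactalbumin, the subunit that makes galactosyltransferase produce lactose, went from 94.1, 6.60 and 66.7 to 30875, 6565 and 2041 units (log2 difference 7.71, standard error 1.52, limma adjusted p = 0.0027). The stages did not overlap in WAP or LALBA, and in both PL 2 was the highest and PL 6 the lowest PL sample.

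CSN3, kappa-casein, which stabilises the casein micelle, stood at 6961, 2969 and 4041 units in MG and 51705, 27037 and 28090.3 in PL (log2 difference 2.96, limma adjusted p = 0.00054). CSN2, beta-casein, stood at 16977, 4862 and 7615 units in MG and 98647, 38297 and 17661 in PL (log2 difference 2.24, limma adjusted p = 0.016). The lowest PL sample of CSN2 was only just above the highest MG sample, and without PL sample 2 its limma adjusted p was 0.065. SPP1, osteopontin, a milk phosphoprotein, rose from 18.4, 31.4 and 7.65 to 98.9, 179.9 and 296 units (log2 difference 3.36, limma adjusted p = 0.00052), and here PL 2 was the lowest of the PL samples. CSN1S1, alpha-s1 casein, behaved unlike its neighbours in the cluster. It stood at 5164, 4045 and 4921 units in MG and 7573, 10909 and 5455 in PL, a log2 difference of 0.71 as deposited (limma adjusted p = 0.1) and 1.38 after scaling (limma adjusted p = 0.013). The stages did not overlap in CSN1S1, but the gap was small, and its means in late gestation and early lactation, 13303 and 14094 units, were above that of PL. PAEP stood at 133989.7, 100471 and 124973 units in MG and 122069, 110169 and 134097 in PL, with overlapping stages, and passed the threshold only after scaling (limma adjusted p = 0.045). CEL, a bile salt lipase secreted in milk, stood at 2.46, 4.33 and 1.08 units in MG and 0.437, 2.03 and 2.76 in PL. MUC1, a mucin of the milk fat globule membrane, stood at 10.5, 63.6 and 41.8 in MG and 35.4, 49.1 and 19.0 in PL. Neither CEL nor MUC1 was called under either scaling.

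**Figure D2:**
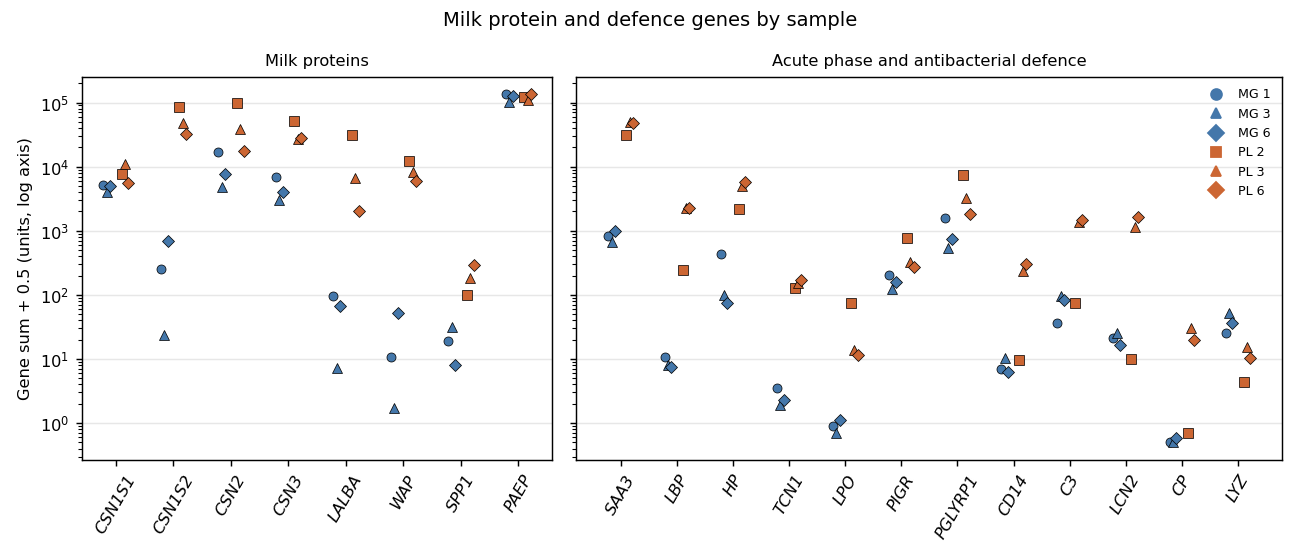
Gene sums plus 0.5 (units, log axis) of 8 milk protein and 12 defence genes in MG samples 1, 3 and 6 (blue) and PL samples 2, 3 and 6 (orange), with 1 symbol per sample. As deposited, the PL squares (sample 2) lie highest for CSN2 and LALBA. They lie among the MG samples for C3 and CD14 and below them for LCN2, where PL 3 and PL 6 are far above.

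Of 20 measured acute-phase and antibacterial genes, 13 rose and 1 fell, against 2.35% and 8.86% of all genes. The median log2 difference was 3.20 as deposited and 3.68 after scaling. SAA3 stood at 837, 677 and 971 units in MG and 31130.5, 49876 and 48332 in PL, so that it ranked among the caseins in level (ratio of means 52.0, log2 difference 5.68, standard error 0.35, limma adjusted p = 6.4e-06). LBP, lipopolysaccharide binding protein, stood at 10.1, 7.59 and 7.08 units in MG and 246, 2271 and 2232 in PL (log2 difference 6.96, standard error 0.81, limma adjusted p = 0.00015). HP, haptoglobin, which binds free haemoglobin, stood at 433, 100.1 and 72.8 units in MG and 2179, 4941 and 5848 in PL (log2 difference 4.76, standard error 0.74, limma adjusted p = 0.00075). TCN1, a vitamin B12 binding protein found in milk, stood at 2.99, 1.41 and 1.80 units in MG and 127, 150.4 and 169 in PL (log2 difference 5.90, standard error 0.63, limma adjusted p = 9.3e-05). There was no overlap of stages in any of these. In SAA3 and TCN1 the PL samples lay close together, and in LBP sample PL 2 was far below PL 3 and PL 6.

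The remaining members of the defence list were looked at sample by sample after their values were seen. LPO, lactoperoxidase, an antibacterial enzyme of milk, rose from 0.387, 0.198 and 0.599 to 74.7, 13.1 and 11.1 units, with PL 2 the highest. PIGR, the receptor that carries IgA across the epithelium into milk, rose from 206, 124 and 158 to 769.6, 327 and 275 units, and PGLYRP1, a peptidoglycan recognition protein, from 1605, 541 and 747 to 7333, 3222 and 1830.4. In both, PL 2 was again the highest. The calgranulins S100A8, S100A9 and S100A12, proteins of neutrophils and stimulated epithelium, were at most 1.39 units in MG and at 1.93 to 19.8 units in PL, and all 3 rose. LYZ, lysozyme, was the member that fell, from 24.5, 50.8 and 35.4 to 3.88, 14.8 and 9.93 units (log2 difference -2.01, limma adjusted p = 0.0036). As deposited, PL 3 and PL 6 were above every MG sample and PL 2 was not in 5 of the 20 measured genes. They were LCN2, C3, CD14, CFB and LTF. This order was not computed after scaling, which divides PL 2 by 0.567 and the MG samples by 1.12 to 1.24. It was also not counted over all genes. LCN2, lipocalin 2, which withholds iron from bacteria, stood at 20.8, 25.2 and 15.7 units in MG and 9.43, 1122 and 1647 in PL. As deposited, PL 2 was thus below all MG samples while the other PL samples were far above them. LCN2 was called only after scaling (limma adjusted p = 0.051 as deposited, 0.039 after scaling). C3, the central complement component, stood at 36.0, 95.8 and 81.5 units in MG and 75.2, 1382 and 1461 in PL. CD14, the lipopolysaccharide co-receptor, stood at 6.43, 9.92 and 5.78 in MG and 9.23, 234 and 298 in PL. C3 and CD14 were called as risen, with stages that overlap as deposited because of PL 2. CP, ceruloplasmin, a copper-binding acute-phase protein, stood at 0, 0 and 0.0871 units in MG and 0.188, 30.3 and 19.5 in PL. Among the 13 risen genes, PL 2 was the lowest PL sample in 9 as deposited (69.2%) and in 7 after scaling (53.8%). Over all 351 risen genes these shares were 55.6% and 38.5%. Without PL sample 2 the list had 15 risen members and none fallen, and LYZ was also not called in both scalings without MG 3 or MG 6.

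Markers of macrophages and neutrophils, which can make some of the defence genes, were lower in PL. Of 15 measured none rose and 6 fell, against 2.35% and 8.86% of all genes. The summed level of the 15 markers was 541, 613 and 537 units in MG samples 1, 3 and 6. In PL samples 2, 3 and 6 it was 154, 257 and 236 units. CSF1R, the macrophage growth factor receptor, stood at 14.3, 12.3 and 20.0 units in MG and 1.31, 7.46 and 1.81 in PL (log2 difference -2.29, limma adjusted p = 0.0039). C1QA, a complement subunit made by tissue macrophages, stood at 119.6, 145 and 138 units in MG and 34.0, 50.2 and 55.5 in PL (log2 difference -1.54, limma adjusted p = 0.00071), and C1QB at 119, 175 and 172 in MG and 39.5, 63.7 and 59.4 in PL. ITGAM, the alpha chain of the integrin Mac-1, stood at 2.25, 3.70 and 3.79 units in MG and 0.528, 0.822 and 0.869 in PL. ELANE and CSF3R, markers of neutrophils, were at or below 1.53 units in every sample of both stages. Without MG sample 3 or MG sample 6 the list had 3 fallen members, and without PL sample 2 it had 4. The part of these cells in the values of the defence genes was not tested. Of 19 lymphocyte and plasma cell markers, none was called in both scalings, while 2.35% of all genes rose and 8.86% fell. As deposited 8 were lower, against 32.9% of all genes, and after scaling 1 was higher, against 6.74%. The median log2 difference over the list was -0.95 as deposited and -0.46 after scaling. JCHAIN, the joining chain of IgA and IgM, stood at 670.2, 1076 and 2838 units in MG and 891, 842 and 709.6 in PL, and MZB1, a plasma cell chaperone, at 15.0, 19.4 and 40.4 in MG and 13.7, 15.7 and 10.8 in PL.

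Cholesterol synthesis had 6 risen members of 17 (35.3%) and none fallen, against 2.35% and 8.86% of all genes. All 17 had a positive log2 difference after scaling (median 0.98, and 0.32 as deposited). HMGCS1, which condenses the first precursor of the mevalonate pathway, stood at 27.7, 25.4 and 27.2 units in MG and 399, 131 and 52.6 in PL (ratio of means 7.26, log2 difference 2.37, standard error 0.51, limma adjusted p = 0.0045). The MG sows were almost equal, and the PL sows ran from 52.6 to 399 units. SC5D, a late desaturase of the pathway, stood at 5.40, 7.21 and 6.60 units in MG and 34.6, 16.9 and 15.9 in PL (log2 difference 1.65, limma adjusted p = 0.0096). CYP51, the lanosterol demethylase, stood at 23.1, 19.9 and 18.0 units in MG and 80.4, 54.2 and 32.9 in PL (log2 difference 1.35, limma adjusted p = 0.006). SQLE, squalene epoxidase, stood at 2.75, 4.07 and 4.80 units in MG and 11.8, 13.0 and 6.28 in PL (log2 difference 1.28, limma adjusted p = 0.01).

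Of 16 genes of fatty acid synthesis, 3 rose (18.8%) and none fell, against 2.35% and 8.86% of all genes. With 1 sample left out, 2 (without MG 3 or MG 6) to 5 (without PL 6) rose. INSIG1, the sterol sensor that holds SREBP in the endoplasmic reticulum and is itself an SREBP target, stood at 7.73, 11.1 and 11.8 units in MG and 114, 73.7 and 30.6 in PL (log2 difference 2.60, standard error 0.36, limma adjusted p = 0.00039). SCD, the desaturase that makes oleate, stood at 72.7, 51.8 and 65.3 units in MG and 561, 184 and 95.4 in PL (log2 difference 1.77, limma adjusted p = 0.018). ELOVL6, an elongase of long-chain fatty acids, stood at 5.00, 14.8 and 12.3 units in MG and 38.1, 44.8 and 22.7 in PL (log2 difference 1.75, limma adjusted p = 0.0045). No overlap between stages was seen in these 3. FASN, fatty acid synthase, was low and irregular at 12.0, 0.414 and 1.67 units in MG and 6.63, 0.183 and 18.1 in PL, and ACACA, acetyl-CoA carboxylase, stood at 9.02, 10.1 and 10.4 in MG and 53.4, 9.60 and 11.7 in PL, with PL 2 alone high. Neither was called. Assembled transcripts are not paired with genes in the table, so a gene sum can miss part of a gene such as FASN.

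Of 26 genes of fatty acid uptake, triglyceride assembly and the milk fat globule, 5 rose (19.2%) and none fell. The shares of all genes were 2.35% and 8.86%. Without MG 1, MG 6, PL 3 or PL 6, 3 rose. CIDEA, a lipid droplet protein that is needed for milk fat secretion in mice, was listed at 0 in all 3 MG samples and stood at 38.3, 38.5 and 3.33 units in PL (limma adjusted p = 0.00032). XDH, xanthine oxidoreductase, which binds the fat globule membrane to the apical membrane, stood at 436, 122 and 144 units in MG and 1363, 908 and 768 in PL (ratio of means 4.33, log2 difference 2.31, limma adjusted p = 0.005). ACSL3, an acyl-CoA synthetase of lipid droplets, stood at 112, 94.7 and 83.1 units in MG and 758, 241 and 167 in PL (log2 difference 1.70, limma adjusted p = 0.0089). AGPAT3, an acyltransferase of glycerolipid synthesis, stood at 8.44, 11.4 and 9.65 units in MG and 10.9, 31.1 and 44.8 in PL (log2 difference 1.31, limma adjusted p = 0.03). Its stages overlapped as deposited because of PL 2. FABP3, the most abundant fatty acid binding protein here, stood at 5733, 4116 and 4604 units in MG and 8664, 4193 and 3396 in PL and was not called, nor was LPL, lipoprotein lipase, at 538, 310.4 and 155 in MG and 542, 166 and 57.6 in PL. Of 12 adipocyte markers 1 rose (8.33%, against 2.35% of all genes) and none fell. It was LEP, the adipokine leptin, at 0, 0.277 and 0.622 units in MG and 1.56, 15.8 and 14.6 in PL. FABP4, the fatty acid binding protein of adipocytes, stood at 729.5, 705 and 441 in MG and 331, 370.3 and 234 in PL.

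The order of the PL samples differed from list to list. PL 2 was the highest PL sample in all 6 risen cholesterol genes after scaling and in 5 as deposited, and PL 6 was the lowest in all 6 under both. In the risen fatty acid synthesis genes PL 2 was the highest in all 3 after scaling and in 2 as deposited, and PL 6 again the lowest. The 5 risen genes of fatty acid uptake and the milk fat globule showed no such order, with PL 2 the highest in 2 and the lowest in 2 as deposited and PL 6 the lowest in 3. Over all 351 risen genes, PL 2 was the highest in 27.6% and PL 6 in 41.6% as deposited, and 45.0% and 31.9% after scaling. PL 2 was the lowest in 55.6% of them and PL 6 in 24.8% as deposited, and 38.5% and 31.1% after scaling. These counts describe 3 sows and were not tested.

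**Figure D3:**
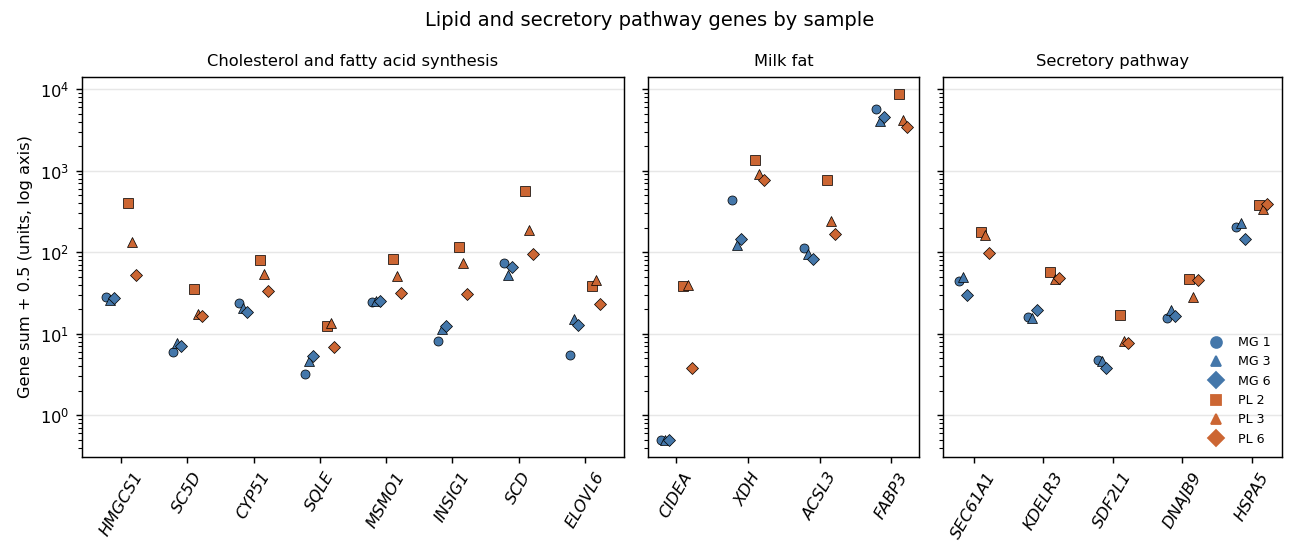
Gene sums plus 0.5 (units, log axis) of 8 lipid synthesis genes, 4 milk fat genes and 5 genes of the secretory pathway in MG (blue) and PL (orange) samples, with 1 symbol per sample. HMGCS1 and SCD fall from PL 2 over PL 3 to PL 6, all above the MG samples, and CIDEA is at the floor in MG because it was listed at 0.

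Genes of the secretory pathway and protein folding gave 10 risen (25.0%) and no fallen members of 40, against 2.35% and 8.86% of all genes. The size depended on the scale: the median log2 difference was 0.29 as deposited and 0.96 after scaling. After scaling 32 were higher, against 6.74% of all genes. SEC61A1, the channel through which proteins enter the endoplasmic reticulum, stood at 43.9, 49.3 and 29.7 units in MG and 178, 161 and 97.4 in PL (log2 difference 1.80, standard error 0.38, limma adjusted p = 0.0041). KDELR3, which returns chaperones from the Golgi, stood at 15.6, 15.3 and 19.3 units in MG and 56.3, 46.7 and 47.4 in PL (log2 difference 1.56, standard error 0.22, limma adjusted p = 0.00038), with both stages tight. SDF2L1, a partner of the chaperone BiP, stood at 4.29, 4.06 and 3.30 units in MG and 16.3, 7.61 and 7.26 in PL (log2 difference 1.22, limma adjusted p = 0.014). DNAJB9, a co-chaperone of BiP, stood at 15.1, 19.2 and 16.2 units in MG and 46.9, 27.3 and 45.3 in PL (log2 difference 1.19, limma adjusted p = 0.0034). HSPA5, which encodes BiP itself and was chosen after its values were seen, rose from 201, 227 and 144 to 381, 335 and 392 units (log2 difference 0.97, limma adjusted p = 0.0029). XBP1, a transcription factor of the secretory apparatus, stood at 1158, 593 and 511 units in MG and 381, 387 and 725 in PL, was not called, and overlapped.

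Of 17 genes of glucose uptake and lactose supply, 1 rose and 1 fell (5.88% each), against 2.35% and 8.86% of all genes. SLC5A1, a sodium-glucose cotransporter, fell from 35.3, 43.7 and 34.3 to 13.2, 6.42 and 3.49 units (ratio of means, MG over PL, 4.90, log2 difference -2.39, limma adjusted p = 0.00077), and no member of the list fell in both scalings without MG sample 3 or PL sample 3. HK2, a hexokinase, rose from 0.336, 0.955 and 0.711 to 2.31, 2.52 and 1.30 units (log2 difference 1.12, limma adjusted p = 0.012). SLC2A1, the main facilitative glucose transporter of the gland, stood at 35.1, 38.1 and 20.4 units in MG and 22.1, 31.5 and 17.2 in PL, with overlap and no call.

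Of 18 amino acid transporters, 2 rose (11.1%) and 1 fell (5.56%), against 2.35% and 8.86% of all genes. SLC6A14, a broad sodium- and chloride-dependent importer, rose from 72.0, 15.0 and 21.0 to 393, 206 and 211 units (ratio of means 7.49, log2 difference 3.16, limma adjusted p = 0.0095). SLC7A4, an orphan of the cationic transporter family, rose from 0.309, 0.403 and 0.719 to 1.30, 29.5 and 18.6 units (log2 difference 3.39, limma adjusted p = 0.0054), with PL 2 far below the other PL samples. SLC7A2, a transporter of arginine and lysine, fell from 0.770, 1.72 and 1.44 to 0.361, 0.223 and 0.269 units (log2 difference -1.17, limma adjusted p = 0.0065). Without PL sample 2, 2 rose and 3 fell, and without MG 3, MG 6, PL 3 or PL 6 none fell.

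Of 25 genes of ion, mineral and water transport, 4 rose (16.0%) and none fell, against 2.35% and 8.86% of all genes. ATP2B2, the plasma membrane calcium pump that moves calcium into milk, rose from 0.256, 0.415 and 0.399 to 1.41, 6.24 and 2.89 units (log2 difference 2.04, standard error 0.44, limma adjusted p = 0.0045). ORAI1, the store-operated calcium channel, rose from 87.5, 77.3 and 62.7 to 181, 123 and 139 units (log2 difference 0.95, limma adjusted p = 0.0033). SLC34A2, a sodium-phosphate cotransporter, rose from 116, 160.3 and 137 to 224, 252 and 237 units (log2 difference 0.79, limma adjusted p = 0.003), with PL samples that lay close together. SLC39A8, an importer of zinc and manganese, rose from 51.2, 60.3 and 51.1 to 67.3, 151 and 197 units (log2 difference 1.21, limma adjusted p = 0.012).

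The hormone receptor and prolactin signalling list held 35 measured genes, of which 2 rose and 2 fell (5.71% each). Of all genes 2.35% rose and 8.86% fell, so the share of fallen members was below that of all genes. Without PL sample 2, 6 rose and 3 fell, and without MG sample 1 none rose and 3 fell. With MG 3, MG 6, PL 3 or PL 6 left out, 1 rose. TNFSF11, RANK ligand, the paracrine signal through which progesterone drives alveolar growth, fell from 8.06, 29.6 and 9.68 to 1.12, 1.67 and 2.34 units (ratio of means, MG over PL, 9.23, log2 difference -2.68, standard error 0.53, limma adjusted p = 0.0028). The stages did not overlap. ERBB4, a neuregulin receptor, fell from 1.18, 1.46 and 1.31 to 0.198, 0.425 and 0.495 units (log2 difference -1.07, limma adjusted p = 0.0045). PGR, the progesterone receptor, stood at 0.354, 0.815 and 0.850 units in MG and 0.195, 0.149 and 0.132 in PL, and was called as deposited (log2 difference -0.80, limma adjusted p = 0.013) but not after scaling (limma adjusted p = 0.082). ESR1, the oestrogen receptor, was listed at 0.141, 0.0205 and 2.37 units in MG and 0, 0.0268 and 0 in PL and was not called. The insulin-like growth factor binding proteins were the members that rose. IGFBP5 stood at 18.4, 32.5 and 37.9 units in MG and 30.7, 285 and 139 in PL (log2 difference 1.90, limma adjusted p = 0.033). As deposited, PL 2 lay inside the MG range. IGFBP3 stood at 1.18, 1.65 and 2.57 units in MG and 3.63, 9.58 and 4.14 in PL (log2 difference 1.38, limma adjusted p = 0.019).

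The transcription factors of the prolactin pathway were not called in both scalings. STAT5A stood at 7.79, 11.2 and 7.25 units in MG and 7.06, 6.14 and 9.60 in PL, with overlap, and its log2 difference was -0.19 as deposited and 0.44 after scaling. Its means in late gestation and early lactation were 29.8 and 34.8 units. ELF5, the factor that directs alveolar cells to secretion, stood at 64.2, 400.2 and 221 units in MG and 66.4, 197 and 267 in PL, a log2 difference of -0.23 as deposited and 0.43 after scaling. STAT5B stood at 137, 147 and 84.6 units in MG and 48.2, 48.8 and 79.9 in PL (log2 difference -1.05, limma adjusted p = 0.044 as deposited and 0.47 after scaling). Within STAT5B, 1 reference isoform, XM_021066242.1, went the other way, at 1.33, 0 and 0 units in MG and 8.09, 15.6 and 14.7 in PL (limma adjusted p = 0.0013). The prolactin receptor PRLR was not analysed here.

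Cell division genes fell together. Of 49 measured, 39 fell and none rose, against 8.86% and 2.35% of all genes. On the deposited values alone 45 were lower, against 32.9% of all genes. The median log2 difference was -2.28 as deposited and -1.84 after scaling, against -0.62 and -0.07 over all genes. TOP2A, the topoisomerase of mitotic chromosomes, stood at 21.1, 24.8 and 23.4 units in MG and 2.98, 2.41 and 1.18 in PL (ratio of means, MG over PL, 10.5, log2 difference -3.19, standard error 0.29, limma adjusted p = 6.4e-05). CCNB1, cyclin B1, which starts mitosis, stood at 18.0, 24.3 and 25.2 units in MG and 3.52, 2.73 and 1.04 in PL (log2 difference -3.07, standard error 0.32, limma adjusted p = 8.2e-05). UBE2C, which feeds mitotic cyclins to degradation, stood at 32.5, 41.6 and 39.3 units in MG and 5.54, 5.01 and 1.61 in PL (log2 difference -3.21, standard error 0.33, limma adjusted p = 8.2e-05). In each of these the MG samples were close to each other, and the highest PL sample was far below the lowest MG sample.

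CCNA2, cyclin A2 of S phase and mitosis, stood at 10.1, 11.9 and 14.4 units in MG and 0, 0.980 and 2.06 in PL (log2 difference -3.34, limma adjusted p = 0.00053). BUB1, a spindle checkpoint kinase, stood at 6.44, 7.50 and 5.17 units in MG and was listed at 0 in every PL sample (limma adjusted p = 0.0073). UNG, a uracil-DNA glycosylase, stood at 8.67, 27.3 and 35.6 units in MG and was also listed at 0 in every PL sample (limma adjusted p = 7e-05). Among replication genes picked after their values were seen, PCNA, the sliding clamp, stood at 82.2, 122 and 106 units in MG and 27.0, 24.5 and 25.7 in PL and MCM3, a subunit of the replicative helicase, at 18.3, 26.9 and 21.4 in MG and 2.76, 3.10 and 3.47 in PL, and both fell. CCND1, cyclin D1 of the G1 phase, fell from 25.9, 55.0 and 31.1 to 7.23, 8.59 and 5.30. MKI67, the antigen of cycling cells, was an exception at 0.504, 2.40 and 0.986 units in MG and 1.20, 0.744 and 0.240 in PL, with overlap (limma adjusted p = 0.44). The level of MKI67 was low and uneven among MG sows, and 3 other members, MCM4, MCM5 and CCND2, were also not called under either scaling. With any 1 of the 6 samples left out, 34 to 39 members fell. Beside these falls, the summed macrophage and neutrophil markers were lower in every PL sample, as given above, and their part in the result was not tested.

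**Figure D4:**
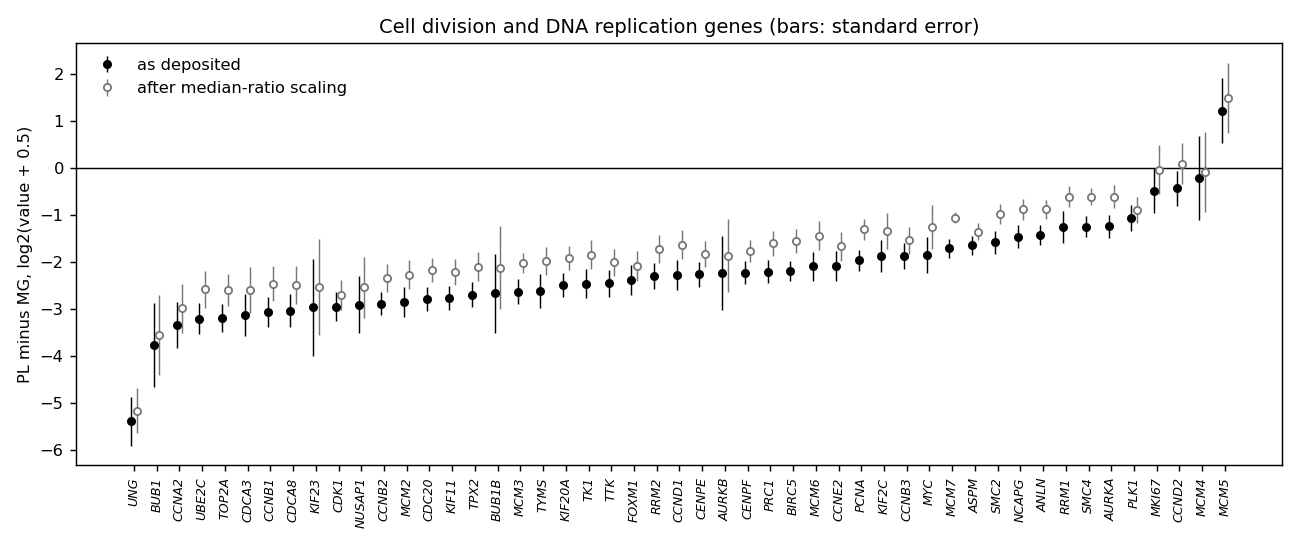
Log2 difference, PL minus MG, of 49 cell division and DNA replication genes on the log2(value + 0.5) scale, as deposited (filled) and after median-ratio scaling (open), with standard errors from limma. Points lie below 0 on both scales except for MCM5 (1.21 as deposited) and, after scaling, CCND2, and MKI67 lies near 0. UNG and BUB1 were listed at 0 in every PL sample, so that their size depends on the added 0.5.

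Ribosomal protein genes fell almost as widely. Of 81 measured, 60 fell (74.1%) and none rose, against 8.86% and 2.35% of all genes. On the deposited values alone 73 were lower, against 32.9% of all genes. The median log2 difference was -1.27 as deposited and -0.60 after scaling, much smaller than that of the cell division genes. RPLP0, a stalk protein of the large subunit, stood at 4687, 4913 and 4556 units in MG and 1196, 2242 and 2788 in PL (log2 difference -1.27, standard error 0.24, limma adjusted p = 0.002). Among the PL samples, PL 2 was the lowest in 59 of the 60 fallen genes as deposited and in 47 after scaling. PL 6 was the highest in 59 and 55 of them. Over all 1323 fallen genes, PL 2 was the lowest in 1062 as deposited and in 661 after scaling, and PL 6 the highest in 495 and 397. Low values in PL 2 as deposited were thus common to most fallen genes. Without PL sample 2, 55 ribosomal protein genes fell. The 13 protein-coding genes of the mitochondrial genome gave no call in both scalings. As deposited 2 of them were lower in PL, and after scaling 8 were higher, against 32.9% and 6.74% of all genes. The calls thus depended on the scale.

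Of 15 genes often taken as references, 4 fell (26.7%) and none rose, against 8.86% and 2.35% of all genes. Without PL sample 2, 6 fell. The median log2 difference over the list was -0.72 as deposited and -0.07 after scaling, near that over all genes, -0.62 and -0.07. GAPDH, a glycolytic enzyme, stood at 188, 244 and 208 units in MG and 70.9, 127 and 96.3 in PL (log2 difference -1.15 as deposited and -0.48 after scaling, limma adjusted p = 0.00088 and 0.0077). HPRT1, of purine salvage, stood at 46.4, 73.5 and 62.4 units in MG and 10.3, 18.9 and 17.2 in PL (log2 difference -1.96, limma adjusted p = 0.00053). TFRC, the transferrin receptor, stood at 17.1, 30.5 and 26.5 units in MG and 0.759, 0 and 11.1 in PL (log2 difference -3.66, limma adjusted p = 0.0087). ACTB, beta-actin, stood at 618, 517 and 816 units in MG and 286, 631 and 436 in PL, and TPT1, the tumour protein translationally controlled, at 11138, 11794 and 11699.7 in MG and 5174, 9522 and 11215 in PL. Neither was called, and in both the log2 difference was below 0 as deposited and above 0 after scaling.

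Of 36 collagen and matrix genes, 5 fell (13.9%) and 1 rose (2.78%), near the shares of all genes, 8.86% and 2.35%. COL3A1, the collagen of reticular fibres, stood at 795, 1104 and 966 units in MG and 229, 445 and 245 in PL (ratio of means, MG over PL, 3.12, log2 difference -1.69, limma adjusted p = 0.0027). LUM, a proteoglycan of collagen fibrils, stood at 195, 283 and 274 units in MG and 43.0, 97.0 and 61.0 in PL (log2 difference -1.96, limma adjusted p = 0.00079). VCAN, the large proteoglycan versican, stood at 7.59, 13.8 and 9.29 units in MG and 0.518, 2.07 and 1.28 in PL (log2 difference -2.64, limma adjusted p = 0.00032). COL1A1, the main fibrillar collagen, stood at 193, 284 and 321 units in MG and 67.0, 207 and 89.3 in PL, overlapped, and was called as deposited only (limma adjusted p = 0.03 and 0.26). MGP, matrix Gla protein, an inhibitor of calcification, rose from 4572, 2019.5 and 2796 to 6120.0, 22247 and 32540.2 units (ratio of means 6.49, log2 difference 2.47, limma adjusted p = 0.004). The stages did not overlap in MGP, and in PL 6 it stood above CSN2. Without PL sample 2, 3 members rose and 7 fell, and without PL sample 3, 8 fell.

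Markers of the other cells of the gland gave few calls. Of luminal and of endothelial markers 7.14% fell, below the 8.86% of all genes. Of basal and myoepithelial markers 6.67% rose, against 2.35% of all genes. Of 14 luminal epithelial markers 1 fell, FOXA1, a partner of the oestrogen receptor, at 1.07, 2.12 and 0.979 units in MG and 0.161, 0.200 and 0.361 in PL (limma adjusted p = 0.014), and this call was lost with any 1 of the 6 samples left out. KRT8 and KRT18, keratins of luminal cells, were not called, and KRT8 stood at 227, 292 and 185 units in MG and 69.9, 345 and 257 in PL. Of 15 basal and myoepithelial markers 1 rose, ACTG2, a smooth muscle actin, at 134, 93.8 and 202 units in MG and 424, 1304 and 848 in PL (log2 difference 2.50, standard error 0.36, limma adjusted p = 0.00047). ACTA2, the alpha smooth muscle actin of myoepithelium, stood at 1232, 1308 and 1302 units in MG and 672, 1369.7 and 1549 in PL and was not called in both scalings. Without PL sample 2, 6 of the 15 rose. Of 14 endothelial markers 1 fell, KDR, the main receptor of vascular endothelial growth factor, at 22.7, 24.6 and 21.5 units in MG and 6.10, 13.8 and 7.18 in PL (limma adjusted p = 0.0019), and none fell without MG 1, MG 3, MG 6 or PL 2. Of 3 red blood cell genes none was called, with HBB, beta-globin, at 181, 142 and 131 units in MG and 46.1, 60.1 and 92.0 in PL and ALAS2, of haem synthesis in red cells, at 1.87, 0.539 and 0.877 in MG and 0.439, 0.592 and 0.843 in PL. Of 10 skeletal muscle markers only MYH1 and MYH2, fast myosin heavy chains, were measured, and both rose, against 2.35% of all genes. Their summed level was low, at 0.293, 0.192 and 0.821 units in MG and 3.10, 12.9 and 14.7 in PL. MYH2 stood at 0.293, 0.111 and 0.672 units in MG and 2.70, 11.7 and 13.0 in PL.

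Of 18 immediate early and heat shock genes, which can respond to handling of tissue, 3 rose (16.7%) and 1 fell (5.56%). The shares of all genes were 2.35% and 8.86%. FOS stood at 3.67, 4.51 and 6.37 units in MG and 6.85, 16.2 and 25.4 in PL (log2 difference 1.49, limma adjusted p = 0.046). FOSB stood at 0.313, 0.376 and 0.479 units in MG and 2.27, 0.894 and 0.830 in PL, ZFP36, which destabilises inflammatory mRNAs, at 26.2, 28.4 and 28.4 in MG and 28.9, 60.1 and 53.7 in PL, and IER2, the member that fell, at 42.5, 45.6 and 38.9 in MG and 11.9, 25.5 and 17.8 in PL. With 1 of the samples left out in turn, the number of risen members ran from 0 to 3, and it was 0 without MG sample 1 or MG sample 3. No member fell without MG 1, MG 3 or PL 6, and 2 fell without PL 3.

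**Figure D5:**
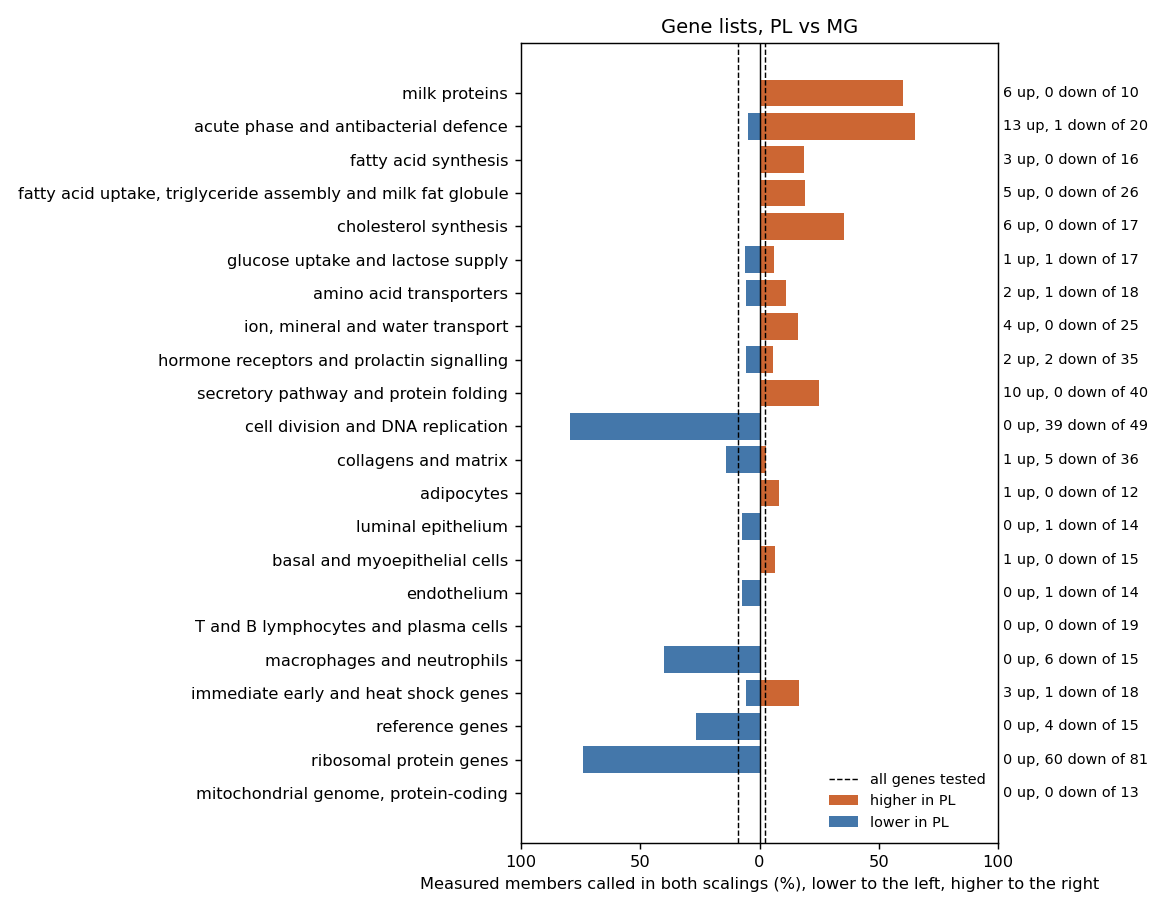
Share of the measured members of 22 gene lists called in both scalings (%), fallen in PL to the left and risen to the right, with counts at the edge. Dashed lines mark the shares over all genes, 8.86% fallen and 2.35% risen. Lists with fewer than 10 measured genes are not drawn.

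At the level of single transcripts, differentially expressed transcripts (DETs) were called at a limma adjusted p below 0.05 and an absolute log2 difference of at least 2. As deposited, 238 were higher in PL (0.385% of 61773) and 848 lower (1.37%). After scaling they were 382 (0.618%) and 359 (0.581%), and in both 234 (0.379%) and 359 (0.581%). As deposited the DETs made up 1.76% of transcripts, and 78.1% of them were lower, against 48.4% after scaling. Without MG sample 3 there were 130 higher and 502 lower DETs as deposited, and without PL sample 2, 474 and 561. Of the 234, 129 were assembled transcripts, and 53 were listed at 0 in all MG samples. Of the 359, 115 were assembled, and 140 were listed at 0 in all PL samples. The reference DETs were then set against the sum of their gene. Of 105 higher, the gene sum also rose for 83, fell for 4 and was not called for 18. Of 244 lower, it also fell for 154, rose for 2 and was not called for 88.

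Beside the milk and defence genes, the largest rises among reference transcripts included F3, tissue factor, the trigger of blood clotting. Its transcript NM_213785.1 was listed at 0 in every MG sample and stood at 56.4, 106 and 100.1 units in PL (limma adjusted p = 0.0035). ZG16B, a secreted lectin-like protein, was listed at 0, 0 and 0.369 units in MG and 25.2, 1.72 and 121 in PL (XM_021086744.1, limma adjusted p = 0.014), and its PL samples differed widely. HP rose in both of its transcripts, and the minor one, XM_005664359.2, went from 2.98, 0.348 and 0.335 to 18.8, 406 and 134 units (log2 difference 6.24, limma adjusted p = 0.0042). Among assembled transcripts, MSTRG.2267.6 went from 0.599, 0.609 and 1.57 to 66.2, 1557 and 3592 units (log2 difference 9.05, standard error 1.12, limma adjusted p = 0.0011). MSTRG.6736.10 was listed at 0 in MG and stood at 35.7, 378 and 543 units in PL (limma adjusted p = 0.003). In both, PL 2 was by far the lowest PL sample, as it was for LBP.

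The largest falls were mostly transcripts listed at 0 in PL. PABPC1, the poly(A) binding protein of the cytoplasm, has 1 reference transcript in the table, XM_001927747.4 on chromosome 4 from 36137644 to 36228075. It stood at 1151, 520.5 and 1149 units in MG and was listed at 0 in every PL sample (limma adjusted p = 1.3e-06). The same held for TRAF2, an adaptor of TNF receptors, at 29.0, 29.1 and 31.8 units in MG, and for UXT, a chaperone-like protein, at 12.4, 14.1 and 34.0. The means of these 3 at early lactation were 855, 16.1 and 9.81 units. As PABPC1 is a gene that all cells use and assembled transcripts are not paired with genes in the table, a listing at 0 describes this transcript only. For RPL28, the transcript XM_021095009.1 went from 147, 152 and 117 to 0, 0 and 8.31 units, while the gene sum went from 1289, 1936 and 1748 to 465, 777 and 528. For GNAS, the stimulatory G protein gene, XM_021077156.1 went from 20.8, 78.9 and 32.1 to 0, 0.379 and 0 units, while the gene sum stood at 425, 875 and 242 in MG and 462, 209 and 72.6 in PL and was not called. For EIF2S3, an initiation factor subunit, XM_021080522.1 stood at 124, 25.7 and 22.7 units in MG and 0 in PL. Its gene sum stood at 124, 25.7 and 143 in MG and 46.3, 0 and 0 in PL. The stages overlapped in this sum, which was called as deposited only (limma adjusted p = 0.046 and 0.15). COL5A3, a minor collagen, and NREP, a protein of regenerating tissue, fell in a named transcript and in the gene sum, which went from 20.8, 28.5 and 29.7 to 3.67, 3.14 and 4.71 units and from 257, 215 and 230.4 to 44.2, 69.6 and 60.1. The assembled MSTRG.1701.2 and MSTRG.4534.1 stood at 318, 196 and 114 and 152, 125 and 161 units in MG and at 0 in PL.

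For 8 genes, 1 reference transcript rose and another fell: EXOC6, INVS, KIAA1429, MPP5, NUF2, SLC25A12, STARD10 and TPX2. KIAA1429, a subunit of the RNA methyltransferase complex, had XM_021089096.1 at 18.9, 18.3 and 20.9 units in MG and 0 in every PL sample. Its transcript XM_021089100.1 was listed at 0 in every MG sample and stood at 6.71, 10.1 and 13.0 in PL. STARD10, a phospholipid transfer protein of milk-secreting cells, had NM_001243805.1 at 10.3, 10.0 and 13.3 units in MG and 0 in PL, while its XM_021102009.1 stood at 14.3, 14.2 and 9.71 units in MG and at 33.5 or more in every PL sample. NUF2 and TPX2, both of the mitotic spindle, had a rising transcript, at most 3.22 and 2.82 units in PL, within a gene sum that fell. With overlapping isoforms the split between transcripts rests on the assembly and quantification by the authors, and no reads per transcript were used here.

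At the other stages the DETs were described by their means, with the choice at PL and MG in mind, which alone tends to place other stages in between. The early lactation mean lay between those of MG and PL for 183 of the 234 higher and 323 of the 359 lower DETs. On the log2 scale it had covered a median of 29.7% and 29.2% of the way from MG to PL, and the late gestation mean 8.93% and 14.6%. On day 2 after weaning (W2) the medians were 0% and 3.55%. LALBA averaged 168 units in late gestation, 1547 in early lactation and 15.2 at W2, and LBP 22.9, 49.3 and 4.81. TOP2A averaged 15.1, 12.9 and 22.1 units, so that at W2 it was near its MG values.

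The fit drew its spread from all 5 stages, and with PL and MG samples alone the DETs were 30 higher and 180 lower. Of 107 named genes and transcripts, 38 were then no longer past the threshold, among them WAP, LALBA, LBP and the main SAA3 transcript, with unchanged differences. No sequences were used here.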

How the data were processed

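RNA-seq of mammary parenchyma was analysed from the deposited table, with 1 value per transcript and sample. The authors trimmed reads with Trimmomatic, aligned them to Sscrofa11.1 with HISAT2, quantified transcripts with StringTie and kept those reaching their minimum level in a stage. The authors describe the deposited table as FPKM, but each sample adds up to a fixed total, so the values were treated as TPM. Whether they include the correction for unwanted variation that the authors name (RUVs) is not given in the sources used here. Reads per transcript were not used here, so the precision of a value was taken from the spread between sows. Each limma p-value rests on the spread within stages, pooled over all 5 stages with 3 samples per stage.

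Values were analysed as log2(value + 0.5), as deposited and after scaling by the median ratio over 2698 transcripts with at least 10 units in each of the 15 samples of the fit. The fit used limma 3.58.1 in R 4.3.3 with trended variance, all 5 stages, the contrast PL minus MG and Benjamini-Hochberg adjustment over all transcripts or genes. Fold changes on this scale understate the change of low genes. Shares were compared by an exact two-sided permutation test. Reference symbols and coordinates came from the RefSeq annotation of the same assembly. On simulated data with 200 changed transcripts among 61773, 75.5% of changes of 3 log2 units and 89% of changes of 4 were called, with 5 and 8 false calls. Changes were planted only in transcripts above a minimum level and below a maximum spread, with normally distributed residuals. The shares called therefore do not hold for low or variable transcripts.

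The members and gene lists were chosen with earlier results of these data known. Named transcripts were the 10 largest rises and 10 largest falls with a symbol, and 2 of each among assembled transcripts, among DETs in both scalings without overlap. Named genes were all milk proteins, up to 4 called genes with the largest change in each other list (the 2 highest where none was called), and a few regulators and reference genes. Other genes given with values (among them LPO, PIGR, C3, CD14, LCN2, FASN, ACACA, FABP3, LPL, XBP1, SLC2A1, PCNA, MCM3, CCND1, KRT8 and ACTA2) were chosen after their values were seen. Alternatives were other scalings, pseudocounts of 0.1 and 1, a filter on low values, PL and MG alone, sample weights, the replicate number as a block, the left-out samples included, and each sample left out in turn. The labels name no batch.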

Additional observations from a re-analysis of the deposited data

How the results depend on the processing

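The 1086 DETs as deposited became 210 with PL and MG alone, 276 with the replicate number as a block, 4688 with all 6 samples per stage and 2920 with the left-out samples counted as 1 further sample. The left-out samples nearly repeat the mean of the others, so the last 2 counts rest on an understated spread. The 741 DETs after scaling became 149 with PL and MG alone, a setting added after the data were seen. The 5267 genes became 2330 after median-ratio scaling, 2339 after quantile normalization, 2536 when rescaled without transcripts of at least 1%, 1733 with PL and MG alone, 3004 with the block and 9425 with all 6 samples. With each sample left out in turn there were 632 to 1528 DETs as deposited, 424 to 1034 after scaling and 3142 to 5796 genes, 4 to 8 fallen matrix genes and 3 to 7 fallen macrophage and neutrophil markers. The replicate numbers do not pair the samples: PL and MG share only 2 numbers, carried by different sows, and deviations of same-numbered samples correlated at 0.053 and -0.020. Log2 differences turned sign only in genes that were not called in both scalings. MUC1 was -0.012 with sample weights, -0.70 with the block and -0.061 with all 6 samples. CEL was 0.094 after quantile normalization, and JCHAIN 0.021 after median-ratio scaling and 0.16 after quantile normalization. ALAS2 was 0.11 after quantile normalization and 0.031 with the block. STAT5A was 0.44 after median-ratio scaling, 0.44 after quantile normalization, 0.32 when rescaled and 0.26 with the block. ELF5 was 0.43, 0.25 and 0.30 under the same 3 scalings and 0.089 with sample weights. MKI67 was 0.14 after quantile normalization, TPT1 0.18 after median-ratio scaling and 0.046 when rescaled, and ACTB 0.093 after median-ratio scaling and 0.013 after quantile normalization. With each sample left out, PAEP ran from -0.088 to 0.12, MUC1 from -0.68 to 0.60, CEL from -0.94 to 0.020 and ELF5 from -0.97 to 0.36. The causes of these changes between settings were not tested. Of 1811 values of named genes and transcripts under the alternatives, 1633 kept direction and side of the threshold, 131 lost the call and 19 gained it.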
